A study of Homo sapiens with 87 samples.

Results

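The 6 genes described here encode subunits that set apart 2 forms of the BAF (SWI/SNF) chromatin remodeller, and they were taken by name out of 35438 genes listed in each gene-level count table. PBRM1, BRD7 and PHF10 belong to the PBAF form, while BRD9, GLTSCR1 and GLTSCR1L belong to the noncanonical form. GLTSCR1 and GLTSCR1L are the older symbols of BICRA and BICRAL and are kept as the tables give them. All 6 passed the filter on low counts in both tables. That GLTSCR1L was high in some clones was already known when the genes were put together, so its p-values describe the fit and are not independent evidence.

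Poly-A RNA was sequenced from HAP1, an attached human line of leukaemic origin that is close to haploid. The knockout set comprised 24 clones that each lacked a functional copy of 1 of 22 genes (ACTB, ARID1A, ARID1B, ARID2, BCL11A, BCL11B, BCL7A, BCL7B, BRD7, BRD9, DPF1, DPF2, DPF3, PBRM1, PHF10, SMARCA2, SMARCA4, SMARCC1, SMARCC2, SMARCD1, SMARCD2 and SMARCD3) and wild type (WT, clone C631), with 3 libraries each. ARID1A (ARID1A_KO_618-10 and ARID1A_KO_618-3) and SMARCA4 (SMARCA4_KO_2878-4 and SMARCA4_KO_2878-6) had 2 clones. Every other labelled clone was the only 1 of its target, so the lost gene and the history of that clone cannot be told apart. No clone is given for SMARCC2_KO, which is counted as 1 of the 24 and has the same limit. Its libraries are listed among those of the double-loss set, and whether they were made with the other knockouts is not given. The double-loss set comprised 2 libraries each of ARID2_KO_siControl, SMARCA4_KO_siControl, ARID2_KO_siSMARCA4, SMARCA4_KO_siARID2, WT_siSMARCA4_siARID2 and WT_siControl, named by genotype and by the gene knocked down, with siControl for the control knockdown. The labels do not tie libraries of a group to separate cultures, so p-values measure the spread between these libraries only. Total counts ran from 14917644 to 29993652 per knockout-set library and from 9144150 to 19789622 per double-loss library. The 4 blood markers (PTPRC, CD34, SPI1, CD33) and the 6 A549 lung-line markers each stayed under 1 CPM on average in WT, and the summed level of the 7 fibroblast markers was 24.04 to 28.8 CPM (CPM being a count scaled by the total of its library) in WT, most of it COL1A1. Over the knockout set the summed level of the fibroblast markers ran from 17.0 to 169 CPM, that of the A549 markers from 0.319 to 6.90 CPM and that of the blood markers from 0.218 to 0.855 CPM, and values of single groups are given with the results they move with.

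BAF complexes use the ATPase SMARCA4 or SMARCA2 to slide or eject nucleosomes, and share a core with SMARCC and SMARCD subunits. The canonical form carries ARID1A or ARID1B. PBAF carries ARID2 with PBRM1, BRD7 and PHF10 instead. The noncanonical form has neither and is built around BRD9 and GLTSCR1 or its paralog GLTSCR1L, together with SMARCD1 and a BCL7 protein; it lies at CTCF sites and promoters.

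GLTSCR1L had the highest ratio of highest to lowest CPM of the 6 genes, 8.79 over the knockout set, so the DNA upstream of its annotated starts is given. RefSeq (GRCh38.p14) lists 3 starts for it, all on the + strand of chromosome 6, and the 250 bases before each are printed 5′ to 3′. Capitals mark the CCAAT box and the GC box (GGGCGG), searched on both strands as CCAAT or ATTGG and as GGGCGG or CCGCCC; the 2 motifs share no bases here.

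GLTSCR1L, chr6:42746737-42746986: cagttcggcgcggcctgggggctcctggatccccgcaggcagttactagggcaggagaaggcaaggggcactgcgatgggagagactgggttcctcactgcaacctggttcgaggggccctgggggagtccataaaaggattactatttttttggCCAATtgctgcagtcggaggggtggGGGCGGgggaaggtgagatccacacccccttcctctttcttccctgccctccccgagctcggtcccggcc

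GLTSCR1L, chr6:42781802-42782051: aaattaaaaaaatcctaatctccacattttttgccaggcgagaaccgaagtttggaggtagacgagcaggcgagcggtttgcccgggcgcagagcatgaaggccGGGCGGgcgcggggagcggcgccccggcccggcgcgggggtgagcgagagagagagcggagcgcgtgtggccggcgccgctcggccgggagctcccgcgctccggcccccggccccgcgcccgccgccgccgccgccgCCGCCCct

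GLTSCR1L, chr6:42820806-42821055: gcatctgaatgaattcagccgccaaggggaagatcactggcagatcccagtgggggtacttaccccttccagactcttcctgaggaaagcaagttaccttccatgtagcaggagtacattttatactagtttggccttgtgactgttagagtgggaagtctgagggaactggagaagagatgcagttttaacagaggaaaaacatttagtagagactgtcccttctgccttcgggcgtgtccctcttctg

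The first window held 1 CCAAT box and 1 GC box, the second held 2 GC boxes and 39 CpG dinucleotides, and the third held neither motif and 3 CpG. Over 35116 RefSeq promoter windows of the same length, 32% held a CCAAT box and 42.6% a GC box, and the median was 11 CpG. The 2 annotated starts of GLTSCR1, on chromosome 19, each held 1 GC box and no CCAAT box, with 19 and 30 CpG. The gene-level counts do not say which start was used, and a matched motif is a description of the letters, not a site.

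On a per-length scale, the quantile-normalized log2 TPM that the authors deposited, PBAF genes were listed higher than noncanonical genes in WT. BRD7 averaged 7.24 ± 0.04, PBRM1 6.80 ± 0.03 and PHF10 6.66 ± 0.04 log2 TPM in WT (SD, n = 3). BRD9 averaged 4.55 ± 0.51, GLTSCR1 4.01 ± 0.06 and GLTSCR1L 3.74 ± 0.26 log2 TPM in WT (SD, n = 3). The PBAF genes were separated from each other by more than their SD, whereas the WT libraries of BRD9 overlapped those of GLTSCR1 (4.04 to 5.07 against 3.95 to 4.07) and GLTSCR1 those of GLTSCR1L (3.50 to 4.02).

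The remaining levels are CPM, and differences are log2 fold changes ± SE from edgeR's quasi-likelihood test, with Benjamini-Hochberg adjustment over 16159 genes (knockout set) or 14601 genes (double-loss set). A test passed at an adjusted p of at most 0.05. Leaving aside the 4 tests of a member in its own knockout, 23 of 140 tests of a member in a clone against WT passed, or 16.4%, while 14.1% of all gene-by-clone tests passed. With at least a 2-fold difference as a further condition, 3 of the 140 passed, or 2.14%, against 4.7% of all tests. Both shares are near or below the background and are not a result about the set. The 3 tests were all of GLTSCR1L and all higher, in a set of tests of which 2.46% passed 2-fold higher. In bulk RNA, a change in the share of cells that express a gene and a change per cell cannot be told apart.

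**Figure D1:**
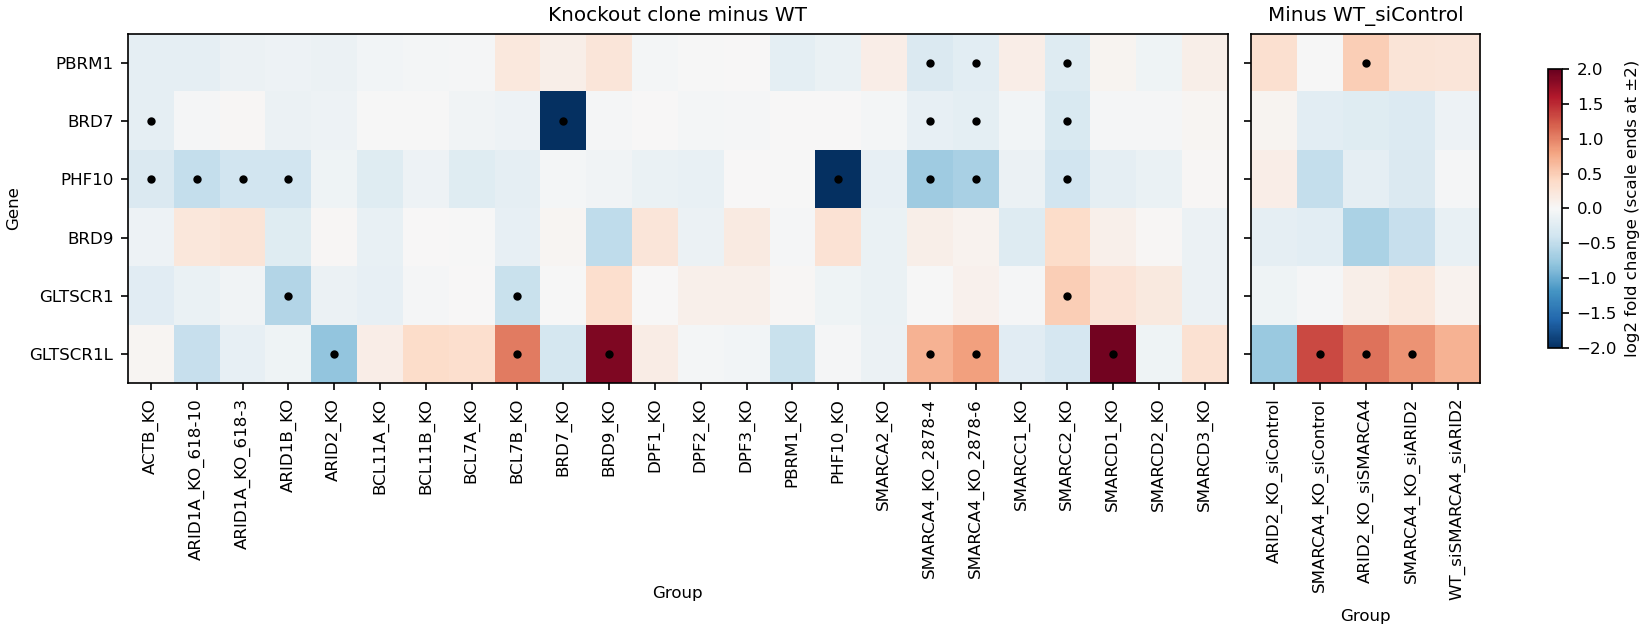
Log2 fold changes of the 6 genes (rows) in 24 knockout clones minus WT (left) and in 5 double-loss groups minus WT_siControl (right); black dots mark tests with an adjusted p of at most 0.05, and colour stops at ±2. The GLTSCR1L row holds the strongest red squares, the PHF10 row has 8 dots in blue squares including its own knockout, and the BRD9 row has no dot.

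The targeted genes check the labels unevenly. BRD7, a bromodomain subunit of PBAF, had 24.05, 25.3 and 26.9 CPM in BRD7_KO, against 150, 149 and 153 CPM in WT. PHF10, a PHD-finger subunit of PBAF, had 15.5, 17.4 and 26.1 CPM in PHF10_KO, against 98.0, 102 and 103 CPM in WT. Both fell well below every other library of the set, by 2.58 ± 0.06 for BRD7 (adjusted p = 8.1e-42) and by 2.36 ± 0.11 for PHF10 (adjusted p = 7.3e-26) on the log2 scale. PBRM1, the polybromo subunit that reads acetylated histones, had 105, 99.5 and 94.2 CPM in PBRM1_KO, against 114, 113 and 107 CPM in WT. The groups did not overlap, but the difference of -0.19 ± 0.08 did not pass (adjusted p = 0.21). BRD9, the bromodomain subunit of the noncanonical form, had 10.3, 22.1 and 18.9 CPM in BRD9_KO, against 16.2, 23.2 and 32.4 CPM in WT. These groups overlapped, and the difference of -0.50 ± 0.21 did not pass (adjusted p = 0.15); without WT replicate 1 it was -0.71 and passed, and without WT replicate 3 it was -0.22 and did not. The counts of PBRM1 and BRD9 therefore do not check the labels of those clones.

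BRD7 overlaps ADCY7, and PHF10 overlaps C6orf120, in RefSeq (GRCh38.p14), and whether counting used the strand is not given. ADCY7, an adenylyl cyclase, differed by 0.35 ± 0.14 in BRD7_KO minus WT (adjusted p = 0.1), and C6orf120 by -0.07 ± 0.07 in PHF10_KO minus WT (adjusted p = 0.74), so neither followed the fall of the gene it overlaps.

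PHF10 was the PBAF gene with the most differences beyond its own knockout: it was lower in 7 of the other 23 clones (30.4%, where 6.78% of all gene-by-clone tests passed lower) and higher in none. In those 7 clones, 6.03% (ACTB_KO) to 18% (SMARCC2_KO) of all genes passed lower. The 23 tests share the 3 WT libraries, and WT ranked 3.5 of 25 groups by PHF10 mean, with 1 the highest. The median difference over the 23 clones was -0.16, so a high WT level would favour calls lower. In SMARCA4_KO_2878-4 PHF10 had 60.2, 57.4 and 64.2 CPM and in SMARCA4_KO_2878-6 66.0, 60.1 and 64.8 CPM, against 98.0, 102 and 103 CPM in WT. Every library of both SMARCA4 clones was below every WT library. The differences were -0.71 ± 0.10 (adjusted p = 3.6e-08) and -0.65 ± 0.10 (adjusted p = 2.7e-07). The ARID1A clones had 77.3, 66.6 and 73.7 CPM (ARID1A_KO_618-10) and 90.3, 73.1 and 72.4 CPM (ARID1A_KO_618-3), again all below WT. Their differences were -0.48 ± 0.10 (adjusted p = 0.00015) and -0.38 ± 0.10 (adjusted p = 0.0034). ARID1B_KO stood at -0.38 ± 0.10 (adjusted p = 0.0025) and SMARCC2_KO at -0.38 ± 0.10 (adjusted p = 0.0019). ACTB_KO, which lacks the actin subunit, stood at -0.29 ± 0.10 (adjusted p = 0.037), a call that was lost in 7 of 13 alternative settings. Knockouts of the PBAF genes PBRM1, BRD7 and ARID2 left PHF10 at -0.01 ± 0.10, -0.03 ± 0.10 and -0.08 ± 0.10, and none of these passed. The calls in ARID1A_KO_618-3 and ARID1B_KO were lost without replicate 2, at -0.33 and -0.37.

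The fibroblast markers were higher in several of the clones with low PHF10, but also in clones where PHF10 did not pass. Their summed level was 123 to 169 CPM in SMARCA4_KO_2878-4, 101 to 146 CPM in SMARCA4_KO_2878-6 and 114 to 121 CPM in ACTB_KO, against 24.04 to 28.8 CPM in WT. It was 36.1 to 41.8 CPM in ARID1A_KO_618-10 and 39.5 to 49.2 CPM in ARID1A_KO_618-3, but 17.0 to 20.5 CPM in ARID1B_KO, below WT. In both SMARCA4 clones 4 of the 7 markers averaged at least 1 CPM, against 2 of 7 in WT, and most of the sum was COL1A1. In ACTB_KO 2 of 7 did, and most of the sum was THY1 (mean 92.8 CPM). Where PHF10 did not pass, the fibroblast sum was 56.9 to 68.7 CPM in BCL7A_KO and 53.7 to 55.0 CPM in SMARCD2_KO. In SMARCC2_KO the sum was 29.3 to 35.3 CPM, and the 6 A549 markers summed to 4.73 to 6.90 CPM, against 1.68 to 1.98 CPM in WT. The part of these markers in the results of any member was not tested.

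BRD7 varied little: outside its own knockout, 72 libraries lay between 118 and 169 CPM with a median of 147. It fell in SMARCC2_KO, with 118, 130 and 128 CPM, against 150, 149 and 153 CPM in WT, a difference of -0.30 ± 0.05 (adjusted p = 5.3e-06). Smaller falls passed in ACTB_KO (-0.18 ± 0.05), SMARCA4_KO_2878-4 (-0.17 ± 0.05) and SMARCA4_KO_2878-6 (-0.19 ± 0.05), and were lost in 3, 3 and 1 of 13 alternative settings in that order. PBRM1 fell in SMARCA4_KO_2878-4, with 84.3, 87.1 and 97.5 CPM, against 114, 113 and 107 CPM in WT, a difference of -0.29 ± 0.08 (adjusted p = 0.0055) that was -0.22 and did not pass without replicate 1. It was also lower in SMARCC2_KO (-0.26 ± 0.08, adjusted p = 0.012) and SMARCA4_KO_2878-6 (-0.21 ± 0.08, adjusted p = 0.044). Those calls were lost in 5 of 12 and in 10 of 13 alternative settings. In SMARCC2_KO, SMARCA4_KO_2878-4 and SMARCA4_KO_2878-6, 33.2%, 34.9% and 32.8% of all genes passed.

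In SMARCC2_KO, fold changes of all genes followed the GC content of their transcripts, with a Spearman rho of 0.478 across 15152 genes with a GC value (93.77% of those tested), against -0.0927 to 0.211 in the other 23 clones. Genes are not independent replicates, so the rho is a description. Genes within 1 percentage point of PBRM1's GC content (40.4%) had a median log2 fold change of -0.20 in SMARCC2_KO minus WT, those near BRD7 (43.1%) -0.13, those near PHF10 (37.3%) -0.28 and those near GLTSCR1 (68.6%) 0.51. The part of GC content in these results was not tested further. The libraries of SMARCC2_KO are listed with the double-loss set, and in WT_siControl of that set PBRM1, BRD7 and PHF10 were also below WT. Their means were 79.0, 137 and 85.6 CPM in WT_siControl, in that order. In SMARCC2_KO they were 94.9, 126 and 79.2 CPM, and in WT 111, 151 and 101 CPM. The part of the set in the SMARCC2_KO differences was not tested.

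**Figure D2:**
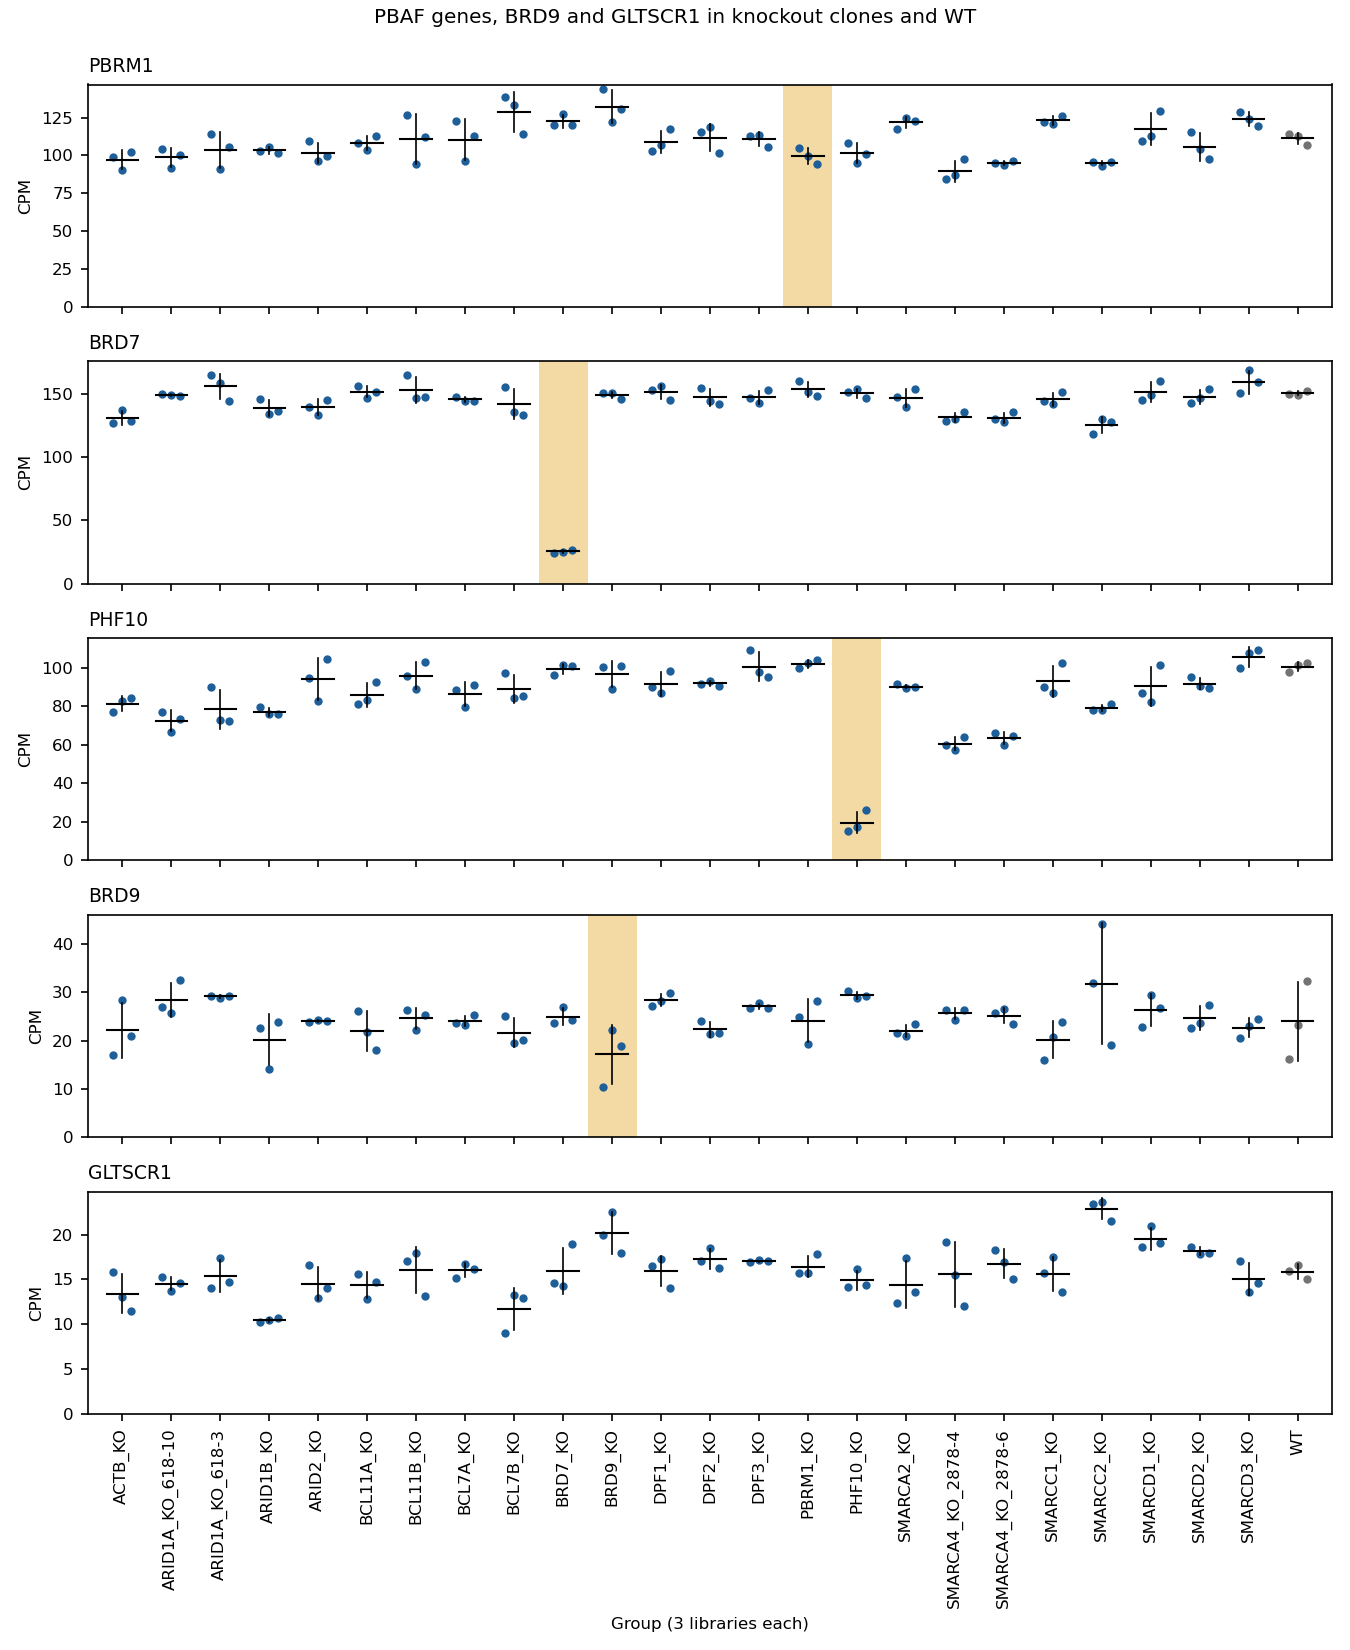
CPM of PBRM1, BRD7, PHF10, BRD9 and GLTSCR1 (y axes, from 0) in each library of 24 knockout clones and, at the right in grey, WT; points are libraries, horizontal lines means and vertical lines SD (n = 3), and the shaded column is the knockout of the gene plotted. BRD7 and PHF10 drop in their own column, PBRM1 and BRD9 do so little, and PHF10 is low in the SMARCA4 clones.

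BRD9 passed in none of the 24 clones against WT. Outside its own knockout its 72 libraries lay between 14.1 and 44.2 CPM with a median of 24.3, and the extremes were both in groups with a wide spread: SMARCC2_KO had 32.0, 44.2 and 19.1 CPM, against 16.2, 23.2 and 32.4 CPM in WT. The SE of the BRD9 differences was 0.20 to 0.21 on the log2 scale, so differences of about that size were within the error.

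GLTSCR1 had 75 libraries between 9.04 and 23.6 CPM. It was lower in ARID1B_KO, with 10.3, 10.5 and 10.7 CPM, against 16.0, 16.6 and 15.0 CPM in WT, a difference of -0.59 ± 0.14 (adjusted p = 0.00073), and all 3 libraries were below WT. It was lower in BCL7B_KO, with 9.04, 13.2 and 12.9 CPM, a difference of -0.44 ± 0.14 (adjusted p = 0.016) that was lost in 6 of 13 alternative settings and was -0.26 without replicate 1. It was higher in SMARCC2_KO, with 23.4, 23.6 and 21.5 CPM, a difference of 0.49 ± 0.13 (adjusted p = 0.0032), in the clone whose fold changes followed GC content. The GLTSCR1 mean was 22.9 CPM in SMARCC2_KO and also 22.9 CPM in WT_siControl of the double-loss set, while WT had 15.9 CPM. Whether this rise goes with the clone or with the set its libraries are listed in was not tested. EHD2, the neighbour of GLTSCR1 in RefSeq and a membrane-trafficking ATPase, was lower in ARID1B_KO (-0.64 ± 0.18, adjusted p = 0.0067) and in SMARCC2_KO (-0.51 ± 0.18, adjusted p = 0.024), so the neighbours moved the same way in the first clone and opposite ways in the second. In BCL7B_KO, EHD2 stood at -0.40 ± 0.18 and did not pass (adjusted p = 0.12).

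GLTSCR1L ran from 6.96 to 61.2 CPM over 75 libraries, an 8.79-fold range. The ranges of PHF10 and BRD7 were 7.055-fold and 7.015-fold with their own knockouts, and 1.91-fold and 1.42-fold without. The highest groups of GLTSCR1L were the knockouts of SMARCD1, a core subunit, and of BRD9. In SMARCD1_KO it had 47.8, 58.4 and 49.7 CPM, against 16.0, 11.2 and 12.7 CPM in WT. In BRD9_KO it had 61.2, 36.3 and 49.0 CPM. The lowest library of either clone had 36.3 CPM and the highest WT library 16.0 CPM, while the 2 clones overlapped each other. The means were 52.0 ± 5.67 CPM in SMARCD1_KO, 48.8 ± 12.4 CPM in BRD9_KO and 13.3 ± 2.45 CPM in WT (SD, n = 3). The differences from WT were 1.93 ± 0.21 for SMARCD1_KO (3.82-fold, adjusted p = 1.2e-10) and 1.86 ± 0.21 for BRD9_KO (3.64-fold, adjusted p = 6e-10). In BCL7B_KO GLTSCR1L had 31.5, 25.7 and 25.6 CPM, all above WT, a difference of 1.05 ± 0.21 (2.06-fold, adjusted p = 0.00011). The 3 tests passed in all 13 alternative settings, with values from 1.74 to 2.14 in SMARCD1_KO, from 1.75 to 2.02 in BRD9_KO and from 0.94 to 1.20 in BCL7B_KO. The difference in BCL7B_KO was therefore not 2-fold in every setting. The summed fibroblast markers were 36.9 to 44.0 CPM in SMARCD1_KO, 28.8 to 29.3 CPM in BRD9_KO and 19.8 to 22.0 CPM in BCL7B_KO, against 24.04 to 28.8 CPM in WT, so they were not raised in all 3 clones.

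Smaller rises of GLTSCR1L passed in both SMARCA4 clones. SMARCA4_KO_2878-6 had 28.1, 19.9 and 22.3 CPM, all above the 16.0, 11.2 and 12.7 CPM in WT, a difference of 0.83 ± 0.21 (adjusted p = 0.0013). SMARCA4_KO_2878-4 had 24.95, 15.6 and 23.2 CPM, of which 1 library was within the WT range, a difference of 0.70 ± 0.21 (adjusted p = 0.0066) that was lost without replicate 3 (0.60) or without WT replicate 2 (0.59). ARID2_KO had 7.07, 6.96 and 8.84 CPM, all below WT, a difference of -0.79 ± 0.22 (adjusted p = 0.0069). That call was lost without replicate 1 (-0.58) or without WT replicate 1 (-0.63). PBRM1_KO, with 10.7, 9.70 and 9.34 CPM, was also below WT in every library, but its difference of -0.45 ± 0.21 did not pass (adjusted p = 0.25), and neither did BRD7_KO at -0.35 ± 0.21 (adjusted p = 0.38) or PHF10_KO at -0.02 ± 0.21 (adjusted p = 0.98). In order of mean level, after SMARCD1_KO, BRD9_KO, BCL7B_KO and the SMARCA4 clones came a run of 18 clones from BCL11B_KO (17.5 ± 3.10 CPM) down to ARID1A_KO_618-10 (9.69 ± 0.80 CPM) with none that passed against WT, and last ARID2_KO (7.62 ± 1.06 CPM).

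**Figure D3:**
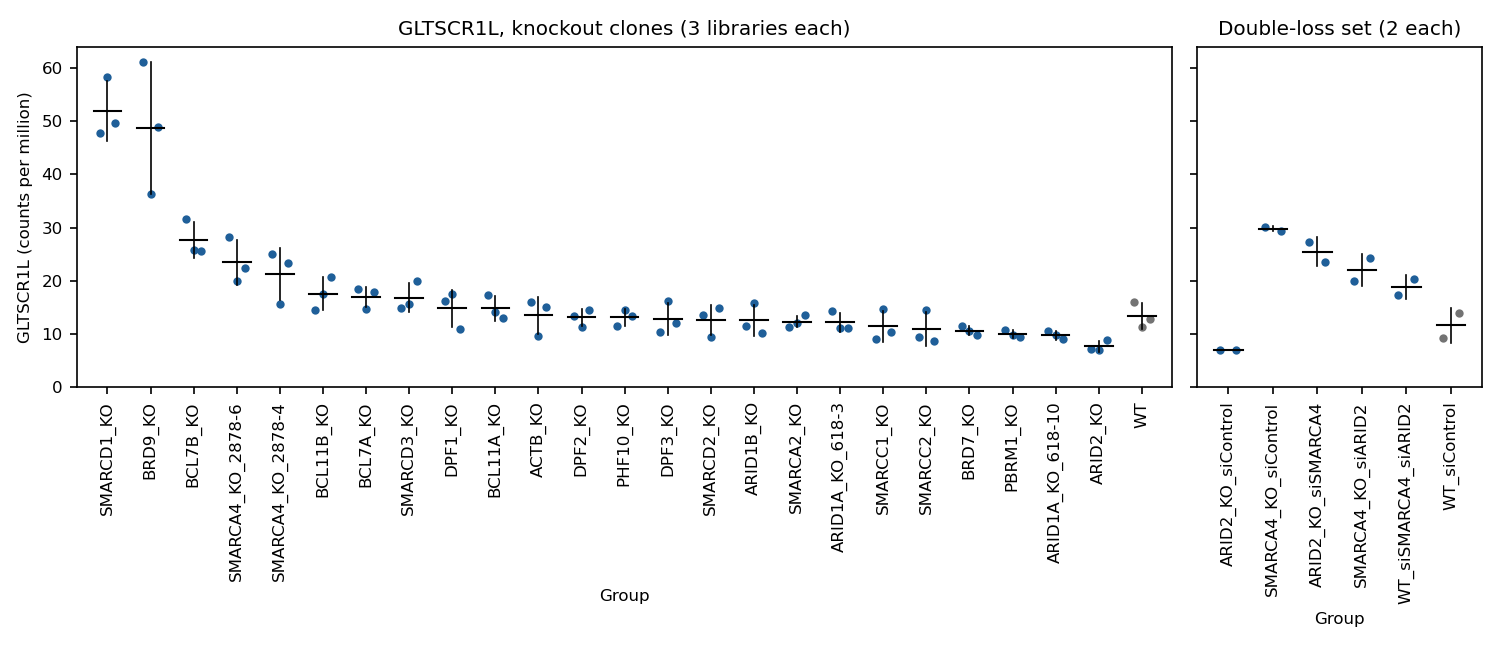
GLTSCR1L in CPM (y axis, from 0) for each library; left, 24 knockout clones in order of mean with WT last, and right, the double-loss set with WT_siControl last. Points are libraries (grey for WT and WT_siControl), horizontal lines means and vertical lines SD (n = 3 at left, n = 2 at right); SMARCD1_KO and BRD9_KO lie between 36.3 and 61.2 CPM, against 11.2 to 16.0 CPM in WT.

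The neighbouring genes did not pass in the clones with the 3 largest rises. TBCC, a tubulin-folding cofactor that lies next to GLTSCR1L on the lower side, differed from WT by -0.08 ± 0.08 in SMARCD1_KO, 0.01 ± 0.08 in BRD9_KO and -0.03 ± 0.08 in BCL7B_KO. RPL7L1, a ribosomal-protein-like gene on the higher side, differed by -0.12 ± 0.07, -0.10 ± 0.07 and 0.03 ± 0.07 in the same clones. None of these 6 tests passed. RPL7L1 was lower in SMARCA4_KO_2878-6 (-0.21 ± 0.07, adjusted p = 0.023), where GLTSCR1L was higher.

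The targets SMARCD1, BRD9, BCL7B and SMARCA4 have close paralogs that were knocked out in the same set, and the clones were set against each other directly in 6 pairs, chosen after the values had been seen. GLTSCR1L was higher in BRD9_KO than in BRD7_KO, which had 11.4, 10.5 and 9.84 CPM, by 2.21 ± 0.22 (adjusted p = 2.1e-12). It was higher in SMARCD1_KO than in SMARCD2_KO (13.6, 9.31 and 14.7 CPM) by 2.02 ± 0.21 (adjusted p = 1.8e-11) and than in SMARCD3_KO (14.8, 15.6 and 19.9 CPM) by 1.64 ± 0.21 (adjusted p = 1.9e-08). None of the libraries overlapped within these 3 pairs. It was higher in BCL7B_KO than in BCL7A_KO (18.3, 14.7 and 17.8 CPM) by 0.71 ± 0.21 (adjusted p = 0.0076), a call lost without replicate 1. Against SMARCA2_KO (11.3, 12.0 and 13.5 CPM), GLTSCR1L was higher by 0.81 ± 0.21 in SMARCA4_KO_2878-4 (adjusted p = 0.0015), a call lost without replicate 1, and by 0.94 ± 0.21 in SMARCA4_KO_2878-6 (adjusted p = 0.00026). Over all genes, 16.6% passed in BRD9_KO minus BRD7_KO, 19.4% and 8.94% in SMARCD1_KO minus SMARCD2_KO and minus SMARCD3_KO, 23% in BCL7B_KO minus BCL7A_KO, and 35.6% and 34.7% in SMARCA4_KO_2878-4 and SMARCA4_KO_2878-6 minus SMARCA2_KO.

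For the paralog GLTSCR1 the values were smaller, and the difference between the 2 genes was not tested. It stood at 0.27 ± 0.14 in SMARCD1_KO (adjusted p = 0.2), 0.33 ± 0.14 in BRD9_KO (adjusted p = 0.14) and 0.34 ± 0.14 in BRD9_KO minus BRD7_KO (adjusted p = 0.079), none of which passed, and in BCL7B_KO minus BCL7A_KO it was lower by 0.44 on the log2 scale (-0.44 ± 0.14, adjusted p = 0.013). The PBAF genes PHF10 and PBRM1 were lower in the SMARCA4 clones than in SMARCA2_KO: PHF10 by -0.55 ± 0.10 and -0.50 ± 0.10, and PBRM1 by -0.42 ± 0.08 and -0.35 ± 0.08, in SMARCA4_KO_2878-4 and in SMARCA4_KO_2878-6 in that order.

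**Figure D4:**
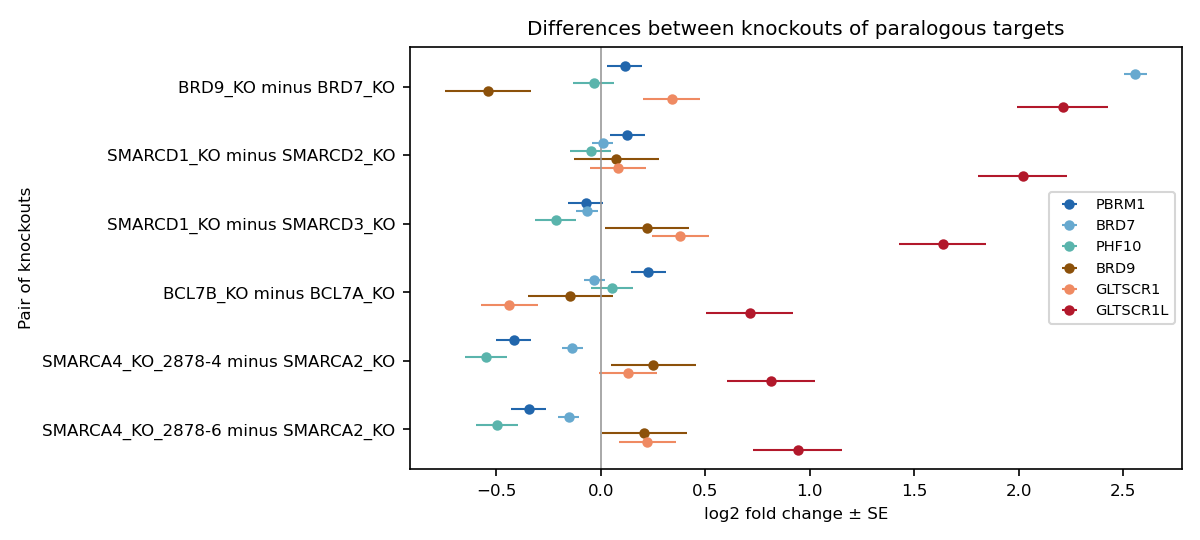
Log2 fold change ± SE (x axis) of the 6 genes (colours) between knockouts of paralogous targets (rows, n = 3 libraries a group). GLTSCR1L lies right of 0 in all 6 pairs, from 0.71 to 2.21; BRD7 in the top row is its own target.

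Clones of the same target were compared for the same genes. None of the 6 passed between SMARCA4_KO_2878-4 and SMARCA4_KO_2878-6 or between ARID1A_KO_618-10 and ARID1A_KO_618-3 with edgeR. Of the 6, 0 had an unadjusted p under 0.05, and 0 passed with DESeq2. Over all genes, 3.43% and 2.3% passed with edgeR in these comparisons. With 6 genes, 0 is near those shares and is not a result about the members. For GLTSCR1L the difference was -0.13 ± 0.21 between the SMARCA4 clones and -0.31 ± 0.22 between the ARID1A clones.

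In the double-loss set, 4 of 30 tests of a member against WT_siControl passed, or 13.3%, against 7.37% of all tests; the 5 groups share those 2 WT_siControl libraries. GLTSCR1L accounted for 3 of the 4. It had 30.2 and 29.4 CPM in SMARCA4_KO_siControl, against 9.25 and 13.9 CPM in WT_siControl, a difference of 1.33 ± 0.24 (2.51-fold, adjusted p = 0.0048). ARID2_KO_siSMARCA4 had 27.3 and 23.6 CPM, a difference of 1.09 ± 0.24 (adjusted p = 0.013), and SMARCA4_KO_siARID2 had 19.9 and 24.2 CPM, a difference of 0.90 ± 0.24 (adjusted p = 0.031). All libraries labelled with SMARCA4 knockout or knockdown lay above both WT_siControl libraries, including WT_siSMARCA4_siARID2 at 17.2 and 20.4 CPM. The difference of the latter, 0.70 ± 0.24, did not pass (adjusted p = 0.23). Neither SMARCA4 nor ARID2 passed in WT_siSMARCA4_siARID2 minus WT_siControl, where 0.651% of all genes passed. The counts therefore do not check the knockdown label of that group. In the other direction, ARID2_KO_siControl had 6.89 and 6.94 CPM, below both WT_siControl libraries, but the difference of -0.74 ± 0.25 did not pass (adjusted p = 0.27).

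The 3 calls of GLTSCR1L against WT_siControl did not all hold in 12 alternative settings, 2 of which gave values with no test. That in SMARCA4_KO_siControl was lost in 1 (the fit on the 2 groups compared), that in ARID2_KO_siSMARCA4 in 4 and that in SMARCA4_KO_siARID2 in 5. Without WT_siControl replicate 1, ARID2_KO_siSMARCA4 stood at 0.81 and SMARCA4_KO_siARID2 at 0.63, and neither passed. ARID2_KO_siSMARCA4 also did not pass without its own replicate 1 (1.02), and SMARCA4_KO_siARID2 did not pass without either of its libraries (1.04 and 0.75). The summed fibroblast markers were 39.7 to 49.5 CPM in SMARCA4_KO_siControl, 40.2 to 51.5 CPM in ARID2_KO_siSMARCA4, 58.9 to 72.2 CPM in SMARCA4_KO_siARID2 and 19.9 to 27.7 CPM in WT_siSMARCA4_siARID2, against 26.8 to 36.2 CPM in WT_siControl.

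SMARCA4 knockdown in ARID2-knockout cells was also tested directly. GLTSCR1L had 27.3 and 23.6 CPM in ARID2_KO_siSMARCA4, against 6.89 and 6.94 CPM in ARID2_KO_siControl, a difference of 1.82 ± 0.25 (3.53-fold, adjusted p = 0.0047) where 4.52% of all genes passed. Without ARID2_KO_siControl replicate 2 it was 1.83 and did not pass. ARID2 knockdown in SMARCA4-knockout cells gave 19.9 and 24.2 CPM in SMARCA4_KO_siARID2, against 30.2 and 29.4 CPM in SMARCA4_KO_siControl. Both libraries were lower, but the difference of -0.43 ± 0.23 did not pass (adjusted p = 0.87), in a comparison in which 0.0205% of all genes passed.

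The other members changed less in the double-loss set. PHF10 had 65.6 and 61.0 CPM in SMARCA4_KO_siControl, against 88.1 and 83.2 CPM in WT_siControl, a difference of -0.48 ± 0.14 that did not pass (adjusted p = 0.06); with the replicate number as a block it did (adjusted p = 0.015). PBRM1 had 133 and 99.2 CPM in ARID2_KO_siSMARCA4, against 80.9 and 77.0 CPM in WT_siControl, a difference of 0.49 ± 0.14 (adjusted p = 0.041); the call was lost in 6 of 12 alternative settings, among them those without ARID2_KO_siSMARCA4 replicate 1, the higher library (0.31), and without either WT_siControl library (0.52 and 0.46). BRD7, BRD9 and GLTSCR1 passed in none of the 5 groups. With the block, BRD9 passed in ARID2_KO_siSMARCA4 (-0.64 ± 0.21, adjusted p = 0.047), where it stood at -0.63 and did not pass without it (adjusted p = 0.082).

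The other BAF genes were followed in the knockouts of PBAF and noncanonical subunits, from a list of 25 genes of which 24 were tested. No gene of the list differed 2-fold in the knockouts of PBRM1, BRD7, PHF10, BRD9 or ARID2. SMARCA2, the alternative ATPase, was higher in BRD9_KO (37.5 ± 0.94 CPM) than in WT (22.3 ± 5.06 CPM), by 0.74 ± 0.20 (adjusted p = 0.011), and in PBRM1_KO by 0.62 ± 0.20 (adjusted p = 0.048). SMARCC1, a core scaffold, and SMARCD2 were lower in PBRM1_KO, by -0.25 ± 0.05 (adjusted p = 0.00033) and -0.36 ± 0.09 (adjusted p = 0.0034). BCL11B, a zinc-finger subunit, was higher in BRD7_KO by 0.83 ± 0.20 (adjusted p = 0.0024), the only gene of the list to pass there. BCL11A and BCL11B were lower in PHF10_KO, by -0.62 ± 0.18 (adjusted p = 0.017) and -0.68 ± 0.21 (adjusted p = 0.033), and in ARID2_KO, by -0.63 ± 0.18 (adjusted p = 0.0073) and -0.81 ± 0.21 (adjusted p = 0.0041). In ARID2_KO, SMARCD2 was also lower (-0.35 ± 0.09, adjusted p = 0.0027), BCL7A higher (0.26 ± 0.09, adjusted p = 0.035) and ARID2 itself lower (-0.67 ± 0.12, adjusted p = 1.4e-05). Beside the targets themselves this made 1 of 24 genes passed in BRD7_KO and in BRD9_KO, 2 in PHF10_KO, 3 in PBRM1_KO and 4 of 23 in ARID2_KO, where 9.72%, 8.27%, 7.14%, 7.43% and 14.9% of all genes passed.

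The likeness of the members across group means was described by Pearson's r. Over 23 groups that left out each gene's own knockout, r was 0.736 between PBRM1 and PHF10, 0.598 between BRD7 and PHF10 and 0.528 between PBRM1 and BRD7, while BRD9 and GLTSCR1 had 0.542 over 24 groups, GLTSCR1 and GLTSCR1L 0.221 over 25 groups, and BRD9 and GLTSCR1L -0.0323 over 24. These values are descriptions with no test. The groups with low PHF10 and PBRM1 include both SMARCA4 clones. SMARCC2_KO, whose fold changes followed GC content, had the highest mean of BRD9 (31.8 CPM) and of GLTSCR1 (22.9 CPM). Its BRD7 mean (126 CPM) was the lowest outside BRD7_KO. The part of single groups in these values of r was not tested. Among 10967 genes of at least 5 CPM, those most like GLTSCR1L over 25 groups were PRR11 (r = 0.89), CENPW, a centromere protein (r = 0.83), and C11orf54 (r = 0.83). PHF10 was most like SRSF6 (r = 0.929) and SF3B3 (r = 0.901), which are splicing factors, and MCOLN2 (r = 0.888). PBRM1 was most like PDS5B, a cohesin regulator (r = 0.849), DHX15, an RNA helicase (r = 0.838), and GABPA, an ETS transcription factor (r = 0.81). BRD7 was most like HMGN5 (r = 0.855), HNRNPR (r = 0.85) and CDC7 (r = 0.84). BRD9 was most like EPHA3 (r = 0.743) and DECR2 (r = 0.731), and GLTSCR1 like SLC29A4 (r = 0.859), SIX5 (r = 0.851) and QRICH1 (r = 0.841). The order depended on the measure: by Spearman's rho, HMGN5 had 0.48 and stood at rank 242, CENPW at rank 20 and MCOLN2 at rank 35 in likeness to the same members.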

How the data were processed

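Poly-A RNA of 87 HAP1 samples was read in 2 deposited gene-level tables of estimated counts, 75 knockout-set and 12 double-loss libraries, which were already whole numbers, so rounding left them unchanged; the lowest value is 1. Per the submitters' processing notes, Trimmomatic, Bowtie, Picard and DESeq2 were named, with the builds GRCh37 and hg19; versions, counting tool and strand handling were not given in the sources used here. The authors also deposited quantile-normalized log2 TPM, per the labels, used for levels per length and as an alternative (71 columns matched). Of all columns, 8 could not be matched to a labelled sample and were not used.

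In R 4.3.3, edgeR 4.0.16 filtered low counts with filterByExpr, scaled by TMM and fitted a robust quasi-likelihood model with 1 term per group over each table; the SE is the size of the log2 fold change divided by the square root of F. CPM uses the library total. Alternatives used DESeq2 1.42.0 and limma 3.58.1. On simulated data for BRD9_KO minus WT (15465 genes), changes of 0.5, 1 and 2 log2 units were recovered in 56.7%, 88.1% and 98.5%. For SMARCA4_KO_siControl minus WT_siControl (14181 genes), they were recovered in 1.49%, 41.8% and 93.9%. The changed genes, 66 or 67 for each size, were drawn only from genes above a minimum mean count. No 2 libraries of a group agreed within counting error (chi-square over its degrees of freedom at least 7.448). Sequences are RefSeq's.

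The members, lists and tests were chosen with earlier results of these data known. Named genes are the 6 members, the 3 most alike genes per member by Pearson's r of group means (1 is not reported here), the other BAF genes that passed in 5 knockouts, and the annotated neighbours of members that passed; the paralog pairs were chosen after the values were seen.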

Additional observations from a re-analysis of the deposited data

How the results depend on the processing

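In the knockout set, 25 of the members' tests passed and 5 of them at 2-fold, own targets included; over the alternative settings (DESeq2 size factors, no low-count filter, DESeq2, limma on log2 TPM, fits on 2 groups, a stricter threshold, a left-out replicate number or WT library), these counts stayed within 1.5 times, at 17 to 27 and 4 to 5. No direction reversed. In the double-loss set, 5 tests passed, the direct test of SMARCA4 knockdown in ARID2 knockout included. That count was 1 in fits on the 2 groups compared and 2 at an adjusted p of at most 0.01, and it was 2 to 7 when single libraries were left out; the 3 tests past 2-fold became 1 in the 2-group fits and 2 to 4 with a library left out, an alternative chosen after seeing the data. Leaving out a replicate number left 1 library a group there, so no test was made. Same-numbered libraries of the knockout set did not all deviate together (mean correlation 0.0377, lowest -0.36). Still, 40.8% of these correlations were above 0.1, and 49 of 75 libraries correlated best with their own number. Those of the double-loss set correlated positively throughout (mean 0.297, lowest 0.0909), and 86.7% of these correlations were above 0.1. Each of the 12 libraries correlated best with its own number. With 2 libraries a group, their deviations from the group mean mirror each other. The 2 libraries of a group therefore always give the same answer, and different numbers give the same mean with the sign turned (-0.297). The values are a hint from the data that same-numbered libraries share an effect, but the libraries are not separate evidence. The main tests did not take the numbers as pairs, and the replicate block is given as an alternative. With the replicate block, 27 tests passed in the knockout set and 7 in the double-loss set, 5 and 3 of them at 2-fold, and 0 between clones of a target. With 2 libraries a group, changes of under 1 log2 unit were often missed. Over all genes, 54526 tests passed in the 24 clones and 30904 without replicate 2; at 2-fold, 18242 passed and 10296 with limma. In the 5 double-loss groups 5383 passed, against 3241 in 2-group fits, 9750 with the replicate block, 2316 at 0.01 and 2804 without WT_siControl replicate 2.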
